A study of Rattus norvegicus with 9 samples.

Results

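The genes described here encode 10 neuropeptide precursors of the spinal dorsal horn other than the opioid and tachykinin precursors: Sst, Npy, Nts, Grp, Cck, Gal, Calca, Calcb, Adcyap1 and Vip. They were taken by gene name from a table of 34890 loci, and each name matched 1 locus. RNA had been extracted from the ipsilateral L3-L6 spinal cord of wild-type male Sprague Dawley rats and sequenced in 3 groups of 3 samples. The JA group was sham-operated and received saline. The SNI group had spared nerve injury, in which 2 branches of the sciatic nerve, the tibial and the common peroneal, are tied and cut while the sural branch is spared, and also received saline. The PLM group had the same injury and received paeoniflorin and liquiritin, a pair of plant glycosides, by gastric infusion. Drug or saline was given for 21 days. Paeoniflorin was at 20.65 mg/ml and liquiritin, per the study's methods, at 3.98 mg/ml for the whole PLM group. The labels of PLM 2 and PLM 3 give 3.99 and 3.100 mg/ml of liquiritin instead, a sequence that may be a clerical error, so the replicates are taken as 1 dose. The age of the rats was not given in the sources used here. The tissue was the whole injured side of the cord, not the dorsal horn alone, so ventral horn motor neurons, glia and root fragments can contribute to the values. In such bulk samples fewer cells of a type and less RNA per cell cannot be told apart.

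Neuropeptides are cut from larger precursors in the secretory pathway, packed into dense core vesicles and released to act on G protein-coupled receptors. In the dorsal horn they come from local interneurons and from the central endings of sensory neurons, whose own mRNA stays mostly in the ganglion. Somatostatin (Sst), neurotensin (Nts), gastrin-releasing peptide (Grp) and cholecystokinin (Cck) mark classes of excitatory interneurons, and neuropeptide Y (Npy) and galanin (Gal) are found in inhibitory ones. Calcitonin gene-related peptide (CGRP), encoded by Calca and Calcb, is made by sensory neurons and, within the cord, by motor neurons. Pituitary adenylate cyclase-activating peptide (Adcyap1) and vasoactive intestinal peptide (Vip) are related peptides with shared receptors, and peripheral nerve injury is known to raise Gal and Vip in sensory ganglia.

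Several of these genes are classical targets of cAMP and calcium signals through the factor CREB, so the stretches of their promoters that hold the CREB motif are shown. RefSeq sequence of build GRCr8, covering 250 bases before and 50 bases after the annotated start, was held for 8 of the 10 genes (Cck and Calcb had no entry). The full palindrome TGACGTCA and its core TGACG, which the palindrome contains, were searched on both strands. A match was found in 6 of the 8. The windows below run 5′ to 3′ on the strand of each gene, with the match in capitals.
Sst: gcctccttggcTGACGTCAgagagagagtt
Vip: gatcaccactgTGACGtctttcgaggagcc
Calca: aagcaccgaggTGACGcaatctgtctgggg
Gal: cgctgagcgggTGACGcggcagctcccacc
Grp: ctatagggagaCGTCAgtgtgctcaggtcc
Nts: ttagggaagatCGTCActttcaatcaaggt
The window of Sst is chr11:90461537-90461566 on the plus strand, and its palindrome begins at base 3 of the annotated transcript. That of Vip is chr1:44470372-44470401 on the plus strand, with the match 97 bases before the start. That of Calca is chr1:178317623-178317652 on the minus strand (112 bases before), and that of Gal is chr1:210084617-210084646 on the minus strand (63 bases before). That of Grp is chr18:61658558-61658587 on the plus strand (86 bases before), and that of Nts is chr7:39461041-39461070 on the minus strand (171 bases before). In Grp and Nts the core lies on the opposite strand. Of 27457 promoters of the same length, 22% held the core and 1.91% the palindrome. No match was found in the windows of Npy and Adcyap1. These are letter matches in a reference and not measurements of binding.

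Expression was given in transcripts per 1000000 (TPM), which accounts for transcript length, so levels of different genes can be compared. TPM keeps no read depth, and no counting error can be given for any value. The precursors spanned a wide range of levels. Sst was the most abundant, with 451.82 TPM in its lowest sample and 577.13 TPM in its highest, and it made up 53.2% to 63.9% of the TPM of the 10 genes together. Npy followed at 113 to 162 TPM, and Cck at 67.2 to 116 TPM. Nts, Gal and Adcyap1 lay between 10.5 and 21.4 TPM in every sample. Grp lay between 1.71 and 4.18 TPM, and Vip between 0.73 and 1.35 TPM. Calca and Calcb were the most variable, with a highest sample 6.27 and 6.73 times the lowest, against 1.25 times for Nts and 1.28 times for Sst. In the order of mean levels, the samples of Cck and Calca, Calca and Nts, Nts and Gal, and Calcb and Grp overlapped in JA. In SNI, Npy and Cck, Cck and Calca, and Calcb and Adcyap1 overlapped. In PLM the neighbours that overlapped were Gal and Adcyap1, and Adcyap1 and Calcb.

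**Figure D1:**
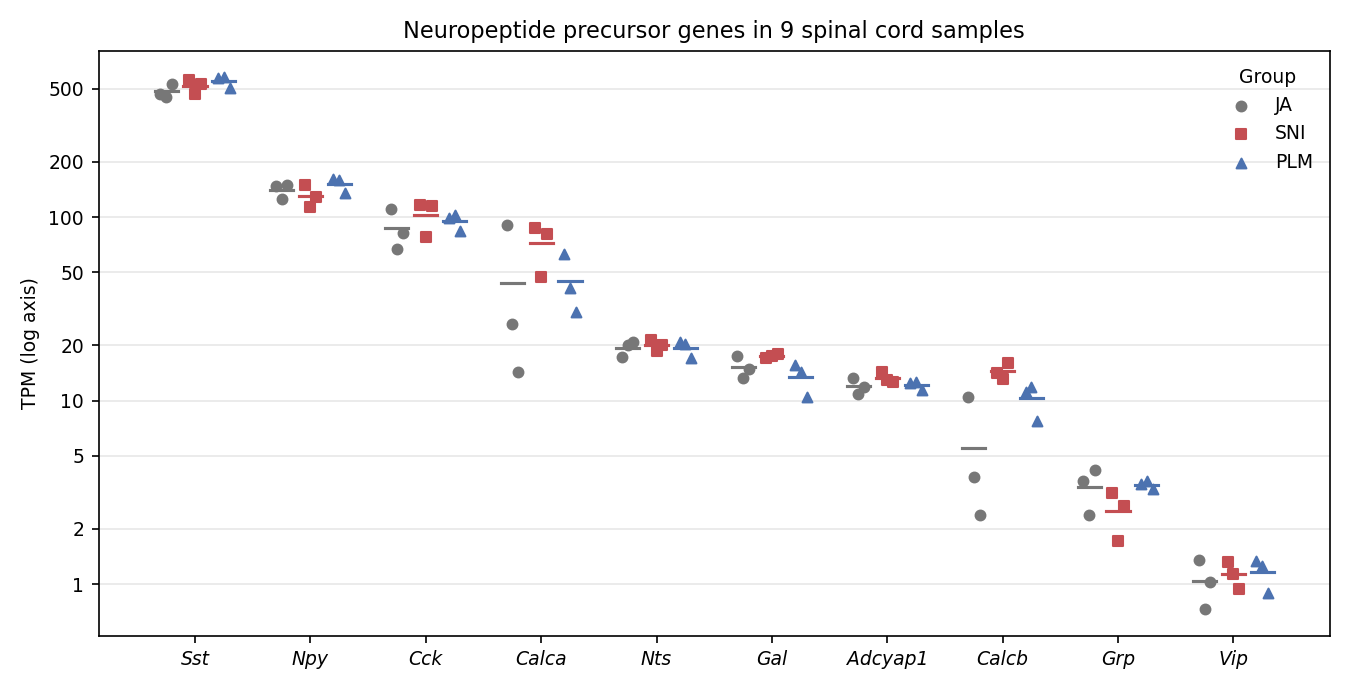
TPM of the 10 precursor genes on a log axis, 1 point per sample, with JA as grey circles, SNI as red squares and PLM as blue triangles; short lines are group means of 3 samples. Sst, Npy and Cck are highest and Grp and Vip lowest in every group, and the widest spread within a group is that of Calca and Calcb in JA.

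Some facts of the whole series bear on these values. The 13 mitochondrial protein genes took 25.3% to 32.8% of all TPM in JA, 23.7% to 26.1% in SNI and 31.3% to 32.8% in PLM. The median log2 fold change of all loci tested was 0.12 in SNI versus JA, -0.21 in PLM versus SNI and -0.10 in PLM versus JA. Each comparison was therefore run as deposited and with every sample centred on its median. Pan-neuronal markers were detected in all samples, and their mean log2 level was 8.15 at most and 7.49 at least in JA, 8.05 to 8.29 in SNI and 7.96 to 8.10 in PLM.

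SNI versus JA addressed the nerve injury. Of the 10 precursors, none was called by limma at an adjusted p under 0.05, and neither was any other of the 15557 loci tested (0%). At an unadjusted p under 0.05 there was 1 precursor, Calcb, where 7.10% of all loci passed. Log2 fold changes were above 0 for 8 precursors and below 0 for 2, and 76.4% of all loci lay above 0. The median over the precursors was 0.12, the same as over all loci, and on median-centred values 5 lay above and 5 below 0, with 48.6% of all loci above. All 10 genes passed the filter on low values in every comparison (mean of 1 TPM or more). The 3 samples of a group are labelled biological replicates, so p-values measure the spread between rats as sampled here.

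Calcb (ENSRNOG00000011074) gave the largest difference of the 10. It measured 10.4, 3.84 and 2.38 TPM in JA 1, 2 and 3, 14.2, 13.1 and 16.0 TPM in SNI 1, 2 and 3, and 11.2, 11.9 and 7.77 TPM in PLM 1, 2 and 3. Every SNI sample lay above every JA sample, and 12.1% of all loci had that pattern. The mean was 5.54 ± 4.28 TPM in JA and 14.4 ± 1.48 TPM in SNI (SD, n = 3), a difference of 1.43 ± 0.41 (SE) on the log2(TPM + 1) scale, used for all fold changes here. Its unadjusted p was 0.0115 and its adjusted p 0.614 (limma), so Calcb passed the thresholds of the study's methods, an unadjusted p under 0.05 with an absolute log2 fold change above 1, as did 0.495% of all loci in the same direction, but not the adjusted threshold. It passed the same pair of thresholds in each of the 6 fits that left out 1 sample, with log2 fold changes between 1.05 and 1.93. Without JA 1, the JA sample nearest to SNI, the adjusted p was 0.112, the lowest of those fits, and the highest was 0.927 (limma).

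Calca (ENSRNOG00000011130) measured 90.0, 26.0 and 14.3 TPM in JA, 87.1, 47.2 and 81.2 TPM in SNI, and 63.0, 41.0 and 30.4 TPM in PLM, each in the order of replicates 1, 2 and 3. JA 1 was the highest of all 9 samples and JA 3 the lowest, so the groups overlapped. The lowest Calca sample of each group (JA 3, SNI 2 and PLM 3) was the one with the highest mean log2 level of 9 Schwann cell markers, a sign of peripheral nerve root, although some of them are also expressed by oligodendrocytes. That level was 5.13, 4.34 and 6.58 in JA, 4.92, 6.30 and 5.61 in SNI, and 4.51, 5.07 and 6.12 in PLM, and the part of root content in the Calca values was not tested. The log2 fold change in SNI versus JA was 1.07 with a 95% confidence interval from -0.42 to 2.56 (adjusted p = 0.614, limma). Without JA 1 it was 1.79 at an adjusted p of 0.236, and without JA 3 it was 0.51 at an adjusted p of 0.859 (limma). Calca and Calcb are neighbouring genes with similar sequence, and how the reads they share were split is not known. The Calca locus also encodes calcitonin by alternative splicing, which a value per locus does not separate. The ratio of Calca to Calcb was 8.64, 6.76 and 6.03 in JA, 6.14, 3.61 and 5.07 in SNI, and 5.63, 3.45 and 3.91 in PLM. These ratios were formed after the values had been seen and are given without a test.

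Markers of motor neurons moved with Calca and Calcb. The mean log2 level of the 10 motor neuron genes was 4.01, 3.25 and 2.90 in JA 1, 2 and 3, the same order as both CGRP genes. It was 4.24, 3.95 and 4.25 in SNI and 3.77, 3.90 and 3.63 in PLM, where the order was that of Calcb and not that of Calca. The order seen in JA was also that of the astrocyte list (6.73, 6.28 and 5.50), the inhibitory neuron list (4.26, 4.01 and 3.99) and the sensory ganglion list (summed level 8.14, 6.53 and 5.46 TPM), so it was not particular to motor neurons. The summed level of the list was 178 to 397 TPM in JA, 343 to 478 TPM in SNI and 283 to 358 TPM in PLM. In SNI versus JA, 9 of the 10 markers were tested, all 9 had a log2 fold change above 0, as did 76.4% of all loci, with a median of 0.87 against 0.12, and none was called. In PLM versus SNI, 8 of 9 lay below 0 (85.0% of all loci did), and Ret, Slc5a7 and Chodl were called lower (13.9% of all loci were called), none of them on median-centred values. With 1 sample left out these 3 were called without SNI 2 alone, and their adjusted p-values from limma reached 0.134. The vesicular acetylcholine transporter Slc18a3, a defining marker, measured 21.01, 8.40 and 4.56 TPM in JA, 26.9, 20.1 and 28.9 TPM in SNI, and 15.8, 18.4 and 13.8 TPM in PLM. The part of motor neuron content in the Calca and Calcb values was not tested. Markers of sensory ganglion neurons were low: 4 of 10 (Scn10a, Scn11a, Prdm12 and Mrgprd) were never above 0.1 TPM, and the highest value of any of the 10 in any sample was 3.08 TPM, for Drgx. The summed level of that list was 5.46 to 8.14 TPM in JA, 6.16 to 8.12 TPM in SNI and 6.16 to 7.83 TPM in PLM. Drgx is also named Prrxl1, a name chosen here as a dorsal horn excitatory neuron marker. The summed level is therefore not that of ganglion neurons alone.

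**Figure D2:**
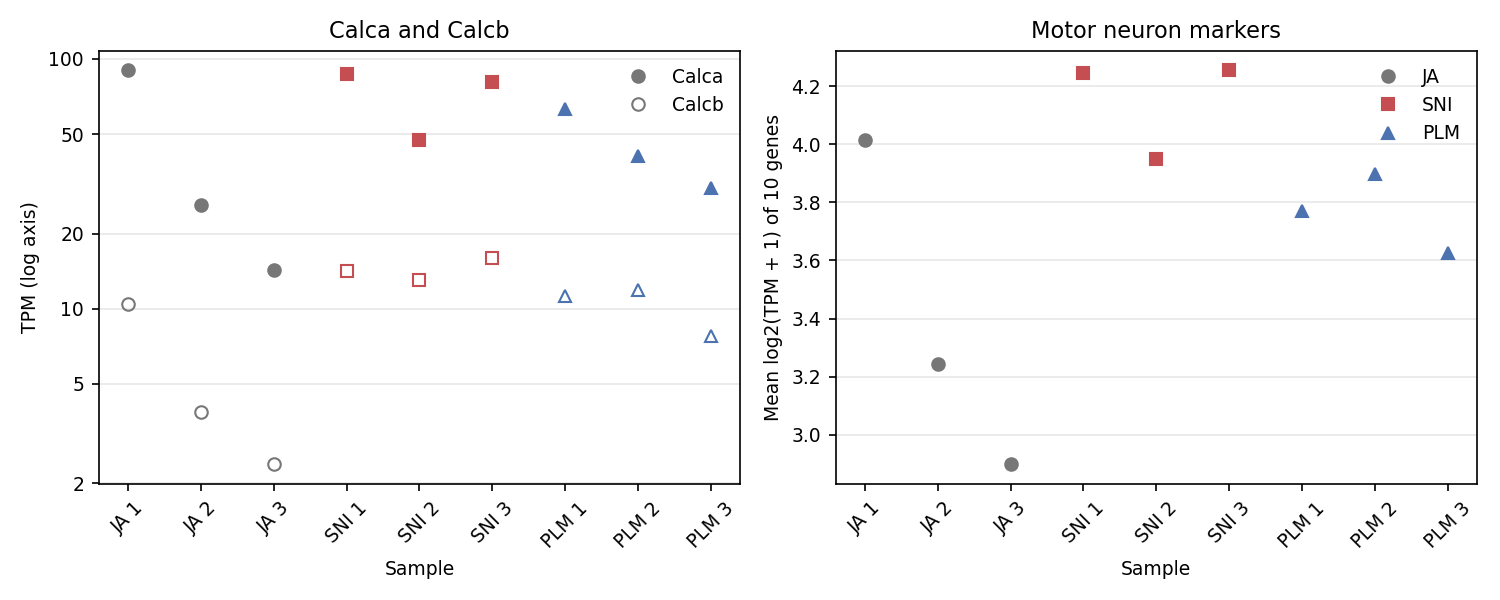
Left, TPM on a log axis of Calca (filled symbols) and Calcb (open symbols) in each sample; right, mean log2(TPM + 1) of 10 motor neuron markers in the same samples, with JA grey, SNI red and PLM blue. In JA all 3 measures are highest in JA 1 and lowest in JA 3, and SNI 2 is the lowest SNI sample in each.

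The precursors of interneurons had log2 fold changes between -0.33 for Grp and 0.25 for Cck in SNI versus JA, and none was called. Sst (ENSRNOG00000001837) measured 467, 452 and 533 TPM in JA and 556, 471 and 531 TPM in SNI, a log2 fold change of 0.10 with a 95% confidence interval from -0.14 to 0.35 (adjusted p = 0.702, limma). Npy (ENSRNOG00000046449) measured 147, 125 and 150 TPM in JA and 149, 113 and 128 TPM in SNI, a log2 fold change of -0.12 with an interval from -0.42 to 0.18. The samples of both groups overlapped for each of these abundant peptides. Grp (ENSRNOG00000016999), whose peptide takes part in itch transmission, measured 3.62, 2.39 and 4.18 TPM in JA and 3.15, 1.71 and 2.66 TPM in SNI, a log2 fold change of -0.33 with an interval from -0.87 to 0.22. Cck (ENSRNOG00000019321), a peptide that opposes opioid analgesia, measured 111, 67.2 and 82.1 TPM in JA and 116, 78.1 and 115 TPM in SNI, a log2 fold change of 0.25 with an interval from -0.28 to 0.79. The lowest sample of each group for both Grp and Cck was replicate 2, and the groups overlapped. Nts (ENSRNOG00000004179) measured 17.2, 19.96 and 20.7 TPM in JA and 21.4, 18.7 and 19.99 TPM in SNI, a log2 fold change of 0.05 with an interval from -0.20 to 0.30.

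Gal, Adcyap1 and Vip, whose mRNAs are known to respond to nerve injury in sensory ganglia, had log2 fold changes between 0.07 and 0.21 in the cord. Gal (ENSRNOG00000015156) measured 17.4, 13.3 and 14.8 TPM in JA and 17.1, 17.5 and 18.0 TPM in SNI, a log2 fold change of 0.21 with a 95% confidence interval from -0.07 to 0.48 (adjusted p = 0.614, limma). SNI samples were close together, and JA 1 lay among them. Without JA 1 the log2 fold change of Gal was 0.30 and its adjusted p 0.249 (limma). Other fits that left out 1 sample gave log2 fold changes down to 0.12 and adjusted p-values up to 0.927 (limma). Vip (ENSRNOG00000018808) measured 1.35, 0.73 and 1.03 TPM in JA and 1.31, 1.14 and 0.94 TPM in SNI, a log2 fold change of 0.07 with an interval from -0.40 to 0.54. Adcyap1 (ENSRNOG00000049882) measured 13.2, 10.9 and 11.9 TPM in JA and 14.4, 12.9 and 12.7 TPM in SNI, a log2 fold change of 0.14 with an interval from -0.11 to 0.39. For Vip and Adcyap1 too the groups overlapped.

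PLM versus SNI addressed the treatment of injured rats. None of the 10 precursors was called by limma at an adjusted p under 0.05, where 13.9% of the 15474 loci tested were called, 2110 lower and 38 higher. At an unadjusted p under 0.05 there were 2 precursors, Calcb and Gal, both lower, where 35.8% of all loci were lower at that p and 1.28% higher. Log2 fold changes lay below 0 for 6 precursors and above 0 for 4, whereas 85.0% of all loci lay below 0. The median over the precursors was -0.07 against -0.21 over all loci, and on median-centred values it was 0.18 against 0.04. Centred values gave 7 precursors above 0 and 3 below, and 57.6% of all loci above 0. Without overlap between the groups, 3 precursors were lower (Calcb, Gal and Adcyap1) and 1 higher (Grp), where 41.9% of all loci were lower and 1.59% higher.

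**Figure D3:**
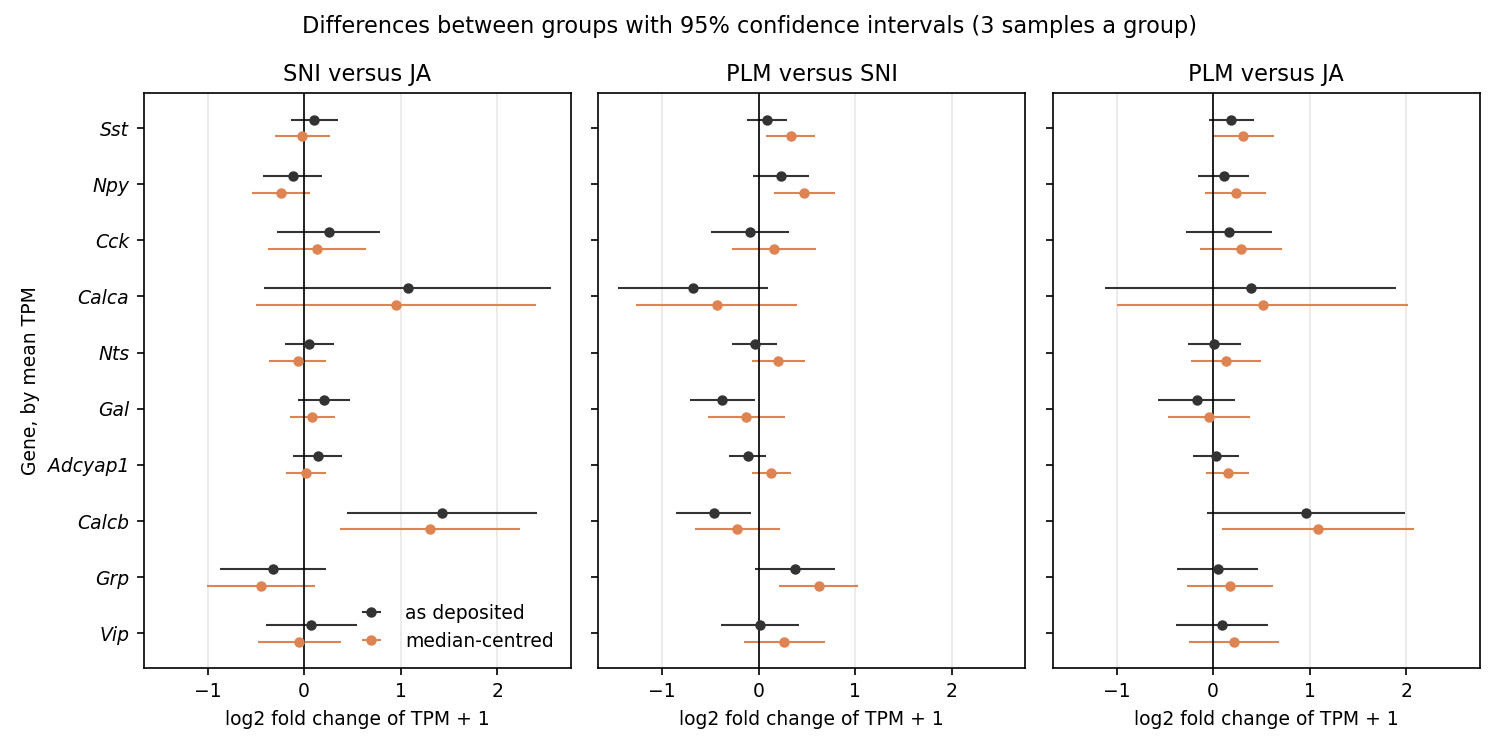
Log2 fold change of TPM + 1 for the 10 genes in the 3 comparisons, with 95% confidence intervals from limma over 3 samples a group; dark points are values as deposited and orange points median-centred values. The intervals of Calcb in SNI versus JA lie above 0 on both scales, whereas in PLM versus SNI those of Calcb and Gal leave 0 only as deposited and those of Sst, Npy and Grp only when centred.

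Calcb in PLM was 10.3 ± 2.20 TPM (SD, n = 3) against 14.4 ± 1.48 TPM in SNI, and all 3 PLM samples lay below the lowest SNI sample. PLM 1 and PLM 2 lay above every JA sample, and PLM 3 lay below JA 1. The log2 fold change was -0.47 ± 0.16 (SE), at an unadjusted p of 0.0253 and an adjusted p of 0.0926 (limma). With 1 sample left out it ranged from -0.57 to -0.30, the latter without PLM 3. On median-centred values it was -0.22 at an adjusted p of 0.594 (limma). Calca had a log2 fold change of -0.68 with a 95% confidence interval from -1.46 to 0.09 (adjusted p = 0.173, limma), and -0.44 when centred. PLM 1 was above SNI 2, so the Calca samples overlapped.

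Gal measured 15.6, 14.4 and 10.5 TPM in PLM, each below the lowest SNI value of 17.1 TPM. Its log2 fold change was -0.38 ± 0.14 (SE), at an unadjusted p of 0.0340 and an adjusted p of 0.108 (limma), and -0.13 with an adjusted p of 0.741 on median-centred values. Adcyap1 measured 12.5, 12.7 and 11.5 TPM in PLM, and its highest PLM sample was 12.65 TPM against 12.69 TPM in the lowest SNI sample. The log2 fold change of Adcyap1 was -0.11 as deposited and 0.13 when centred, so its direction followed the scaling. Vip measured 1.34, 1.25 and 0.89 TPM in PLM, a log2 fold change of 0.02 with a 95% confidence interval from -0.39 to 0.42.

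Sst, Npy and Grp lay above the median locus, as did Vip, Adcyap1, Nts and Cck, whereas Calca, Calcb and Gal lay below it. Sst measured 575, 577 and 502 TPM in PLM, a log2 fold change of 0.09 as deposited (adjusted p = 0.487, limma) and of 0.33 on median-centred values (unadjusted p = 0.0177, adjusted p = 0.198, limma). Npy measured 162, 159 and 135 TPM, a log2 fold change of 0.23 as deposited (adjusted p = 0.212, limma) and of 0.47 when centred (unadjusted p = 0.0105, adjusted p = 0.164, limma). Grp measured 3.51, 3.62 and 3.30 TPM, all above the highest SNI sample of 3.15 TPM. Its log2 fold change was 0.37 as deposited (adjusted p = 0.166, limma) and 0.62 when centred (unadjusted p = 0.00997, adjusted p = 0.163, limma). As deposited with 1 sample left out, log2 fold changes ranged from 0.20 to 0.51 for Grp and from 0.13 to 0.33 for Npy. Both low ends were without SNI 2. Sst, Npy and Grp were the 3 precursors at an unadjusted p under 0.05 on centred values, all of them higher. Of all loci, 16.9% passed that p in either direction and 1555 were higher. None of the 10 passed the adjusted threshold on that scale, which 0.814% of all loci did. On the same scale 9 of 10 microglia markers lay above 0, and 8 had an unadjusted p under 0.05 (limma). Of the oligodendrocyte markers 10 of 10 lay above 0, and 5 passed that p. All 10 astrocyte markers lay below 0. Cck measured 99.4, 103 and 84.0 TPM in PLM, a log2 fold change of -0.09 as deposited and 0.16 when centred. Nts measured 20.9, 20.3 and 17.1 TPM, a log2 fold change of -0.04 as deposited and 0.20 when centred, and both had samples that overlapped with SNI.

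PLM versus JA set the treated injured rats beside the sham-operated rats, and it shares its samples with the other comparisons. None of the 10 precursors was called by limma at an adjusted p under 0.05 and none had an unadjusted p under 0.05, where 0.0195% and 11.8% of 15349 loci passed. The groups overlapped for all 10, where 17.7% of all loci did not overlap. Log2 fold changes lay above 0 for 9 of 10, with Gal the exception, against 28.8% of all loci, and the median was 0.10 against -0.10 over all loci. On median-centred values 9 again lay above 0, against 56.3% of all loci, with a median of 0.22 against 0.03. As deposited but without JA 2, 5 lay above and 5 below 0, with a median of 0.01 against -0.11 over all loci, and 8 of the 10 lay above that median of all loci. Centred on pan-neuronal markers, 2 lay above and 8 below 0, with a median of -0.15 against -0.34 over all loci. Calcb had the largest value, a log2 fold change of 0.96 with a 95% confidence interval from -0.07 to 1.99 (unadjusted p = 0.0629, adjusted p = 0.454, limma). When centred it was 1.08 (unadjusted p = 0.0370, adjusted p = 0.494, limma), past the thresholds of the study's methods, as were 0.352% of all loci in the same direction. As deposited with 1 sample left out, the log2 fold change of Calcb ranged from 0.58 without JA 3 to 1.46 without JA 1. Calca had a log2 fold change of 0.39 with an interval from -1.12 to 1.89, which became -0.18 without JA 3 and 1.11 without JA 1. The log2 fold changes of the other 8 genes lay between -0.17 for Gal and 0.19 for Sst.

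Many precursors were lowest in the same sample of a group. PLM 3 was the lowest of the 3 PLM samples for 10 of 10 genes, and for 26.5% of the 15503 loci with a mean of 1 TPM or more over the 9 samples. SNI 2 was the lowest SNI sample for 7 genes and 39.9% of those loci, and JA 2 the lowest JA sample for 7 genes and 35.4% of them. SNI 1 was the highest SNI sample for 8 genes and 44.3% of those loci, and JA 1 the highest JA sample for 6 genes and 56.7% of them. In PLM the highest sample was PLM 1 for 5 genes and PLM 2 for 5, with 20.5% and 34.4% of those loci. The summed TPM of the 10 genes was 878, 721 and 834 in JA, 979, 774 and 926 in SNI, and 964, 945 and 802 in PLM. PLM 3 and SNI 2 also had the highest Schwann cell marker level of their groups, whereas JA 2 had the lowest of all 9 samples. The pan-neuronal list was lowest within its group in JA 2, SNI 2 and PLM 3 (mean log2 levels of 7.49, 8.05 and 7.96), as were the dorsal horn excitatory neuron list (3.02, 3.11 and 3.07) and the list of other neuropeptide precursors (3.21, 3.31 and 3.29). The last 2 lists share the genes Tac1, Tac3 and Nmu. The inhibitory neuron list was instead lowest in JA 3, SNI 2 and PLM 1 (3.99, 4.11 and 3.98). The motor neuron list was lowest in JA 3, SNI 2 and PLM 3 (2.90, 3.95 and 3.63). The part of root and neuronal content in the values of the 10 genes was not tested.

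**Figure D4:**
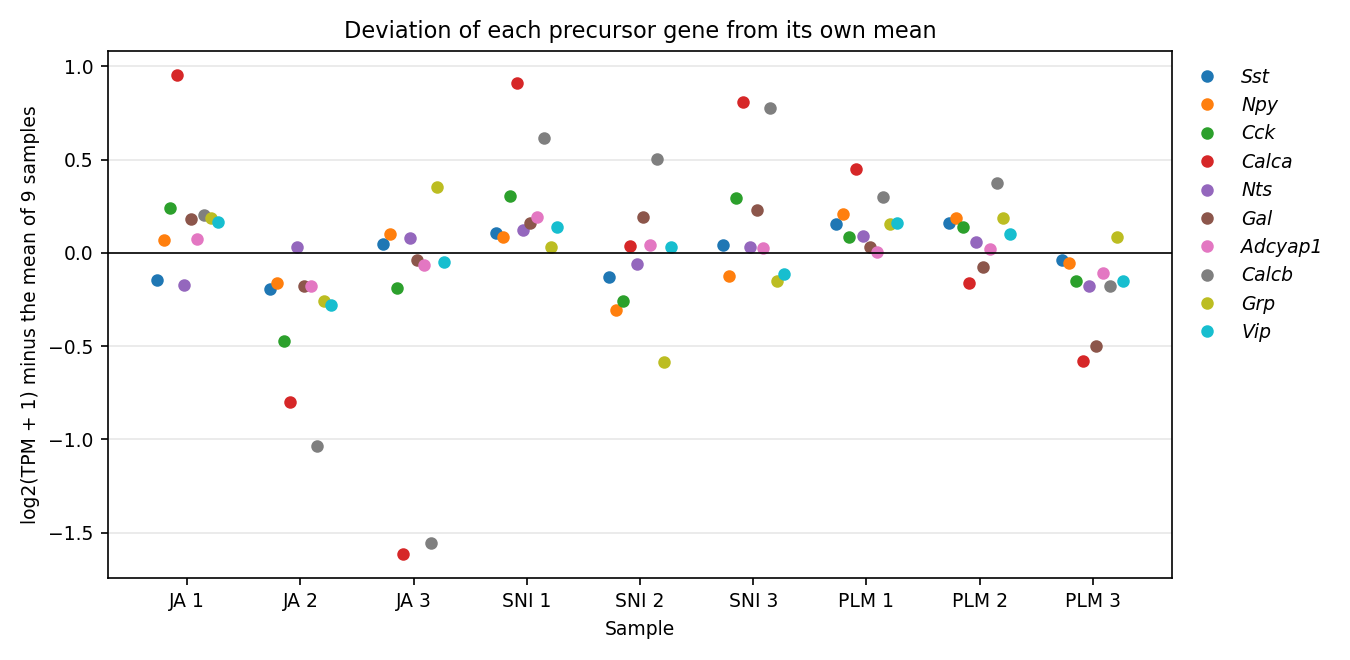
Log2(TPM + 1) of each precursor in each sample minus its mean over the 9 samples, 1 colour per gene. In PLM 3 every gene is at its lowest within PLM, and in JA 2 and JA 3 Calca and Calcb lie farthest below their means.

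Of 27 receptors and receptor partners of these peptides, 25 were found in the table by name and 16 reached the filter in SNI versus JA and in PLM versus SNI. None was called in SNI versus JA (0% of all loci were), none was at an unadjusted p under 0.05 (7.10% of all loci were), and the median log2 fold change was 0.11 against 0.12 over all loci. In PLM versus SNI 5 of 16 fell and none rose (limma), where 13.9% of all loci were called, with a median log2 fold change of -0.25 against -0.21 over all loci. On median-centred values 1 of the 5, Ntsr2, was called. In PLM versus JA none of 15 tested was called. The receptors of highest mean level were Ntsr2 and Ramp2. Receptors below the filter included Grpr, the receptor of gastrin-releasing peptide, which was at 0.22 TPM at most.

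Ntsr2, a neurotensin receptor known to be expressed in astrocytes, measured 142, 113 and 58.6 TPM in JA, 133, 137 and 130 TPM in SNI, and 53.6, 42.5 and 39.4 TPM in PLM. All PLM samples lay below all JA and SNI samples, and JA 3 lay near PLM. Ntsr2 fell in PLM versus SNI by 1.55 ± 0.12 (SE) on the log2 scale (adjusted p = 0.00477, limma), and the centred difference was -1.304 (adjusted p = 0.0263, limma). Leaving out 1 sample gave adjusted p-values between 0.0052 and 0.0301. All 10 astrocyte markers were also called lower in PLM versus SNI (13.9% of all loci were called), and 8 of them when centred (0.814% of all loci), with a median log2 fold change of -1.35, and the summed level of that list was 1819 to 3536 TPM in JA, 3071 to 3404 TPM in SNI and 1497 to 1811 TPM in PLM. The part of astrocyte content in the value of Ntsr2 was not tested.

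Adcyap1r1, the receptor selective for the Adcyap1 peptide, measured 22.1, 16.9 and 13.03 TPM in JA, 24.7, 21.7 and 19.6 TPM in SNI, and 12.98, 13.1 and 12.6 TPM in PLM. It fell in PLM versus SNI by 0.73 (adjusted p = 0.0116, limma). Without PLM 2 its adjusted p was 0.0516, and after centring the difference was -0.48 (adjusted p = 0.0834, limma). Ramp3 and Ramp1, partners that shape receptors of the calcitonin family, fell by 0.53 (adjusted p = 0.0339) and 0.35 (adjusted p = 0.0474, limma). Sort1, a sorting protein that binds neurotensin, fell by 0.35 (adjusted p = 0.0420, limma). None of these 3 was called when centred. With 1 sample left out, Sort1 and Ramp1 were called in none of the 6 fits, at adjusted p-values between 0.0586 and 0.137 (limma), and Ramp3 was called without SNI 3 alone, at up to 0.115 otherwise. Ramp2 averaged 100.4 ± 2.55 TPM in JA, 88.0 ± 5.25 TPM in SNI and 89.9 ± 7.55 TPM in the PLM group (SD, n = 3), and PLM versus SNI gave 0.03 on the log2 scale. Npy1r, the main postsynaptic receptor of neuropeptide Y in the dorsal horn, measured 7.07 ± 1.05, 7.06 ± 0.165 and 7.12 ± 0.928 TPM in JA, SNI and PLM (SD, n = 3).

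Genes that process peptides and build dense core vesicles numbered 14, of which 13 were tested in PLM versus SNI, and Pcsk1n was listed at 0 in every sample. In SNI versus JA all 13 had a log2 fold change above 0, as did 76.4% of all loci, none was called, and 4 had an unadjusted p under 0.05, as did 7.10% of all loci. Their median was 0.31, and 0.19 when centred, and all 12 pan-neuronal markers lay above 0 as well, with a median of 0.31. Of the 13, 2 fell in PLM versus SNI and none rose, close to the 13.9% of all loci called, and the median log2 fold change was -0.27 against -0.21 over all loci. Scg3, a granin that helps to sort peptides into granules, measured 134, 105 and 91.5 TPM in JA, 161, 157 and 140 TPM in SNI, and 89.9, 95.6 and 82.4 TPM in PLM, and fell by 0.77 (adjusted p = 0.00751, limma). Cpe, carboxypeptidase E, which trims the ends of peptide intermediates, measured 542, 439 and 414 TPM in JA, 595, 576 and 536 TPM in SNI, and 399, 397 and 381 TPM in PLM, and fell by 0.53 (adjusted p = 0.00759, limma). Both were called in each of the 6 fits that left out 1 sample. All 10 astrocyte markers were called lower in the same comparison, with a median log2 fold change of -1.35, and in JA both genes had the sample order of the astrocyte list (6.73, 6.28 and 5.50). The motor neuron, inhibitory neuron and sensory ganglion lists had that order in JA too. In SNI the astrocyte list (6.73, 6.74 and 6.47) had the order of neither gene. In PLM (5.41, 5.21 and 5.12) it had that of Cpe and not that of Scg3. The part of astrocyte content in the values of Scg3 and Cpe was not tested. When centred neither was called, with log2 fold changes of -0.52 and -0.29 (adjusted p = 0.0722 and 0.133, limma). Scg5, after Cpe the most abundant of the list, measured 437, 355 and 441 TPM in SNI and 415, 443 and 401 TPM in PLM, a log2 fold change of 0.04. In PLM versus JA none of 12 tested was called.

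**Figure D5:**
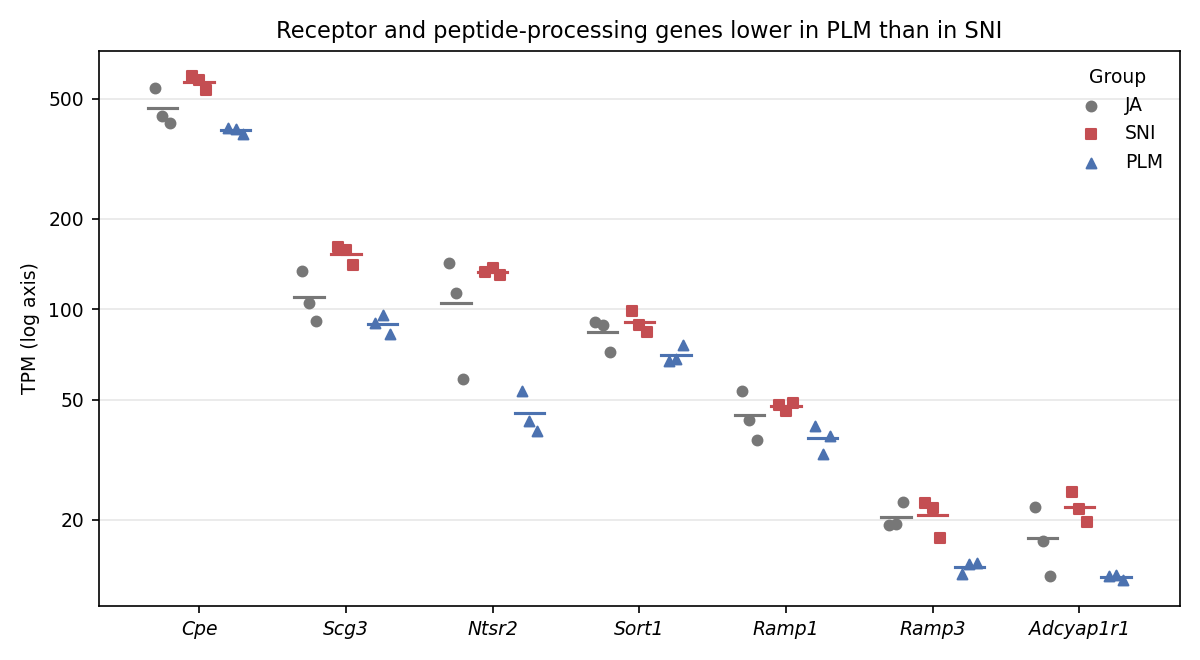
TPM on a log axis of the 5 receptor genes and 2 peptide-processing genes called lower in PLM than in SNI, 1 point per sample, with JA grey, SNI red and PLM blue; short lines are group means of 3 samples. For all 7 genes the PLM samples lie below the SNI samples, and JA samples fall in both ranges for Adcyap1r1 and Sort1.

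Peptidases that degrade neuropeptides numbered 9, of which 8 were tested. In SNI versus JA and PLM versus JA none was called. In PLM versus SNI 5 of 8 fell, where 13.9% of all loci were called, with a median log2 fold change over the 8 of -0.32 against -0.21 over all loci. None of the 8 was called when centred. These 5, named after their values were seen, were Npepps, Thop1, Ece1, Prep and Nln, and the most abundant was Npepps at 29.5 to 43.1 TPM. With 1 sample left out, Npepps was called without SNI 2 alone and Ece1 without PLM 3 alone, the other 3 were called in no fit, and adjusted p-values from limma reached 0.146. Neprilysin (Mme) measured 1.24 to 3.00 TPM and was not called.

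Among 13 other neuropeptide precursors, 11 were tested and none was called in any comparison, where 13.9% of all loci were called in PLM versus SNI. Their median log2 fold change was 0.003 in SNI versus JA, -0.03 in PLM versus SNI and -0.06 in PLM versus JA, beside 0.12, -0.07 and 0.10 for the 10 precursors described here. On median-centred values all 3 changed sign, to -0.12, 0.22 and 0.06, and 10 of the 11 lay above 0 in PLM versus SNI (57.6% of all loci did), beside centred medians of 0.0003, 0.18 and 0.22 for the 10 precursors. The most abundant were the enkephalin precursor Penk, at 175 to 267 TPM, and the neurokinin B precursor Tac3, at 49.0 to 69.4 TPM. Sst exceeded Penk in each sample, per transcript length.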

How the data were processed

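The 9 libraries were prepared with a TruSeq kit. Per the study's methods, the authors removed adaptors and low-quality reads, mapped reads with HISAT2 and computed expression with StringTie. The submitters' processing notes also name CASAVA and fastp 0.19.5, and they list a human build (GRCh38.p13), whereas the identifiers are those of rat genes. The rat build is not given in the sources used here. The authors deposited 1 table of TPM values, whose totals lie between 999999.6 and 1000000.4 in each sample. Read depth is unknown.

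Groups were compared in pairs on log2(TPM + 1) with limma 3.58.1 (variance trend) in R 4.3.3, keeping loci whose mean over the 6 samples was 1 TPM or more, so fold changes understate those of low genes. P-values are two-sided and were adjusted by Benjamini-Hochberg over all loci tested. A gene was called at an adjusted p under 0.05. Errors are SD over 3 samples, or SE from limma where marked, and intervals are 95% confidence intervals from limma.

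The 10 precursors and 13 other gene lists were chosen with earlier results of these data known. All 10 precursors are named. Of the receptor and peptide-processing lists, called genes and the 2 of highest mean TPM are named. Others were named after their values were seen. Alternatives were median-centring, TPM rescaled without 13 mitochondrial protein genes, quantile normalization, a pseudocount of 0.1, no filter, at least 1 TPM in every sample, all 9 samples in 1 fit, a replicate block, the study's thresholds and leaving out each sample. Centring on pan-neuronal markers was added after the data had been seen. Promoter sequences are from RefSeq (GRCr8).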

Additional observations from a re-analysis of the deposited data

How the results depend on the processing

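No precursor was called by limma at an adjusted p under 0.05 in any of the 3 comparisons under any alternative. With the study's thresholds the count in SNI versus JA was 1 (Calcb). Centring on pan-neuronal markers left Calcb at a log2 fold change of 0.996 in that comparison, just under those thresholds. Without JA 1 the precursors past those thresholds in SNI versus JA were 2, and likewise 2 in PLM versus JA (Calca and Calcb). The fold changes of the 10 genes that changed direction with the scaling are given here, and none of these was called. In SNI versus JA, median-centring gave -0.019 for Sst, -0.069 for Nts and -0.049 for Vip, quantile normalization -0.042, -0.076 and -0.034, and rescaling without mitochondrial genes -0.034 for Nts. In PLM versus SNI, median-centring gave 0.20 for Nts, 0.16 for Cck and 0.13 for Adcyap1, quantile normalization 0.19, 0.10 and 0.13, and rescaling without mitochondrial genes 0.10, 0.058 and 0.023. Centring on pan-neuronal markers gave, in SNI versus JA, -0.33 for Sst, -0.38 for Nts, -0.18 for Cck, -0.23 for Gal, -0.29 for Adcyap1 and -0.36 for Vip. In PLM versus SNI it gave 0.14 for Nts, 0.095 for Cck and 0.069 for Adcyap1, and in PLM versus JA -0.14 for Npy, -0.059 for Sst, -0.24 for Nts, -0.20 for Grp, -0.084 for Cck, -0.22 for Adcyap1 and -0.16 for Vip. Leaving out 1 sample crossed 0 for Nts (-0.024 to 0.10 in SNI versus JA, -0.094 to 0.042 in PLM versus SNI, -0.067 to 0.095 in PLM versus JA) and Vip (-0.040 to 0.18, -0.048 to 0.11 and -0.022 to 0.20 in the same order). It also crossed 0 for Cck (-0.27 to 0.0066 in PLM versus SNI, -0.0022 to 0.35 in PLM versus JA) and, in PLM versus JA, for Grp (-0.13 to 0.18), Calca (-0.18 to 1.11) and Adcyap1 (-0.034 to 0.092). All other fold changes of the 10 genes kept their direction.

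The number of loci called in PLM versus SNI was 2148 as deposited, 126 median-centred, 155 after quantile normalization, 283 without mitochondrial genes, 47 centred on pan-neuronal markers, 1258 without a filter, 486 with all 9 samples in 1 fit, 255 at the study's thresholds and 275 to 1494 with 1 sample left out. In SNI versus JA, none as deposited became 1 without a filter, 1 to 8 with 1 sample left out and 107 at the study's thresholds. In PLM versus JA, 3 became 5 with a pseudocount of 0.1, 1 without a filter or with all 9 samples, 3 to 22 with 1 sample left out and 144 at the study's thresholds. Deviations of samples with the same replicate number correlated at -0.05 to 0.13, with 2 of 9 pairs over 0.1, so the numbers were not taken to pair the samples. With the replicate number as a block, 0 precursors were called in each comparison, and the loci called were 152 in PLM versus SNI, 1 in PLM versus JA and 0 in SNI versus JA. Under the block Ntsr2 and Scg3 were the genes called in the receptor and processing lists, and 0 of the 8 peptidases were called. The causes of these differences were not tested. Since TPM keeps no depth, low values such as those of Vip and Grp have an unknown counting error.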
